A study of Saccharomyces cerevisiae with 2 samples.

Results

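Protein glycosylation and glycosylphosphatidylinositol (GPI) anchoring were examined through 57 genes of the budding yeast *Saccharomyces cerevisiae*, chosen by function and matched to array probes by gene symbol or synonym. Of these 57 genes, 55 had probes among the 5094 genes probed, and 42 had a value on both arrays. The data come from a genetic interaction screen (GIM), in which haploid double mutants are formed by crossing a query deletion into a barcoded pool and the barcodes are then read by array. The query pool carried the query deletion, and it was compared with a reference GIM pool whose own genotype the labels do not give. Titles name the query as *PIH1* and source names give *RSA1*. Both pools were mixes of haploid strains derived from BY4742/BY4741, made from DAmP strains (alleles that lower a gene's mRNA by disturbing its 3′ end) and grown for 18 generations under G418 and nourseothricin. Each of 2 arrays, from 2 screens called independent, compared both pools in 2 colours, so n = 2 throughout.

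N-glycosylation starts at the membrane of the endoplasmic reticulum (ER), where Alg enzymes build an oligosaccharide on the lipid dolichol, first on the cytosolic face and then in the lumen. Oligosaccharyltransferase (OST) moves the finished glycan to asparagine residues, ER glycosidases trim it, and Golgi mannosyltransferases extend it into the mannan of the cell wall. Pmt enzymes attach mannose to serine or threonine, and a parallel set of ER enzymes builds the GPI lipid that holds many wall and surface proteins. Dolichol phosphate mannose feeds all of these ER routes.

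Values are log2 ratios of query pool over reference pool, centred on each array's median over probes and averaged over a gene's probes. Base and direction are not stated in the sources used here. The direction is likely rather than known, on the basis of 34 genes within 50 kb of *PIH1*, of which 30 had a negative mean (median -1.01), as linkage to a query deletion would give. The direction would flip for all genes alike if this reading were wrong. Values were larger in size on array 2 than on array 1 for 2957 of the 4048 genes tested and for 29 of 41 genes of the glycosylation and GPI list. The test left out every gene within 100 kb of either query name. *ALG5*, near *RSA1*, was the only gene of the list that this removed, which left 41 tested genes. A ratio belongs to a gene, since the probes do not tell a DAmP allele from a deletion.

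No gene of the list passed the test. By limma with Benjamini-Hochberg adjustment over all 4048 genes, 0 of 41 were called higher (background 0% of genes tested) and 0 of 41 lower (background 0%), with a smallest adjusted p = 0.24 for *ALG14*. At an unadjusted limma p under 0.05, 8 of 41 were higher (background 11.8%) and 2 of 41 lower (background 4.97%). As centred, 0 of 41 genes were at or above 1 on both arrays (background 6.4%) and 0 of 41 at or below -1 on both (background 2.03%). The highest ratio of the list on array 1 was 0.90, and the first count rose when the arrays were rescaled. At 0.5 in place of 1, 7 genes were above on both arrays (background 13.2%), namely *ALG3*, *ALG7*, *ALG9*, *ALG14*, *DPM1*, *GAB1* and *PMT2*, and 1, *PMT1*, was below (background 4.99%). Ratios were positive on both arrays for 21 of 41 genes (background 34.7%) and negative on both for 11 (background 33.9%). The median of the 41 genes was 0.20, with 0.14 on array 1 and 0.28 on array 2, beside -0.01 over all genes tested. Over the 41 genes, all measured on the same 2 arrays, Pearson's r between arrays was 0.744, as a description only.

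**Figure D1:**
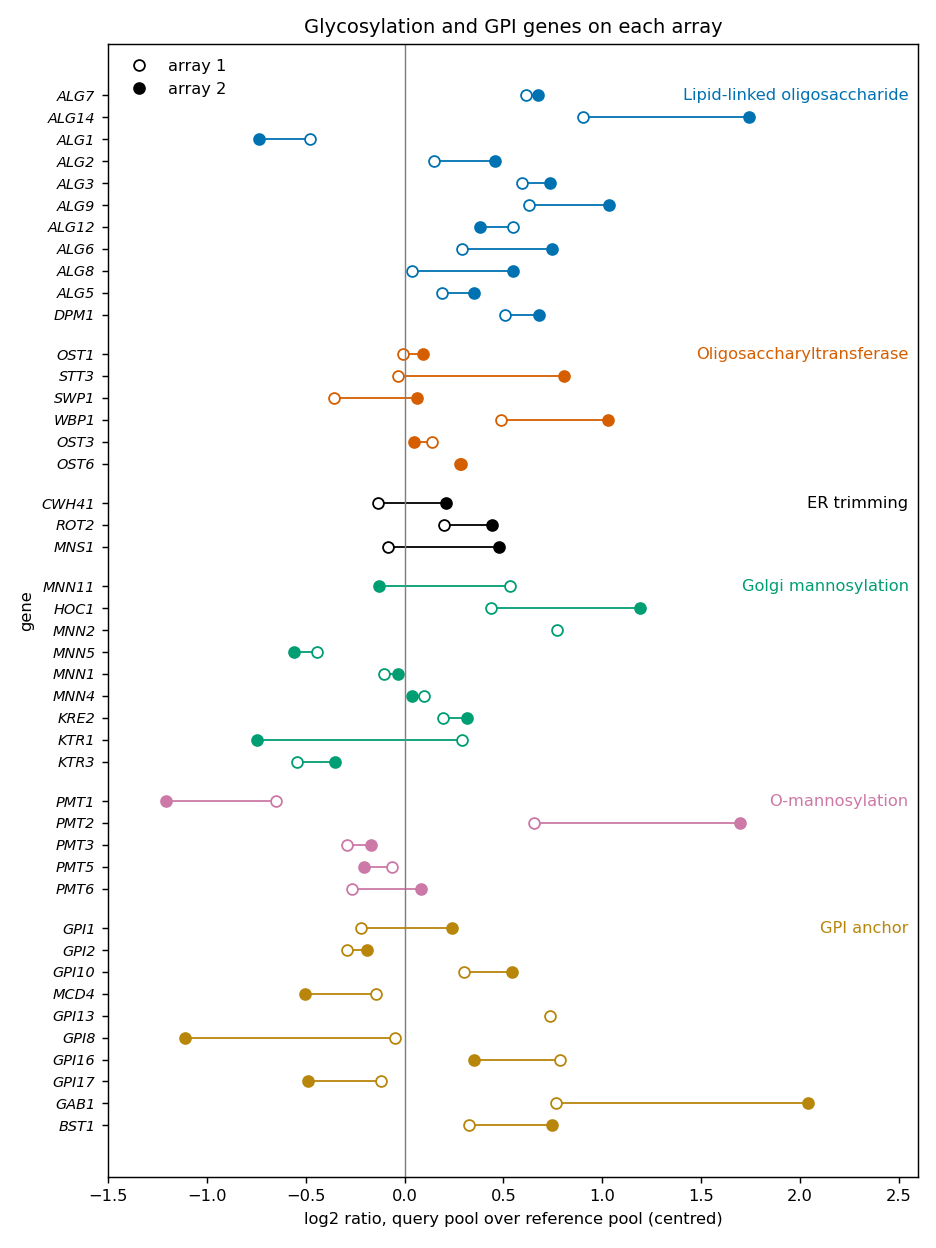
Centred log2 ratios of query pool over reference pool (x axis) for each glycosylation and GPI gene with a value (y axis), with array 1 as open and array 2 as filled circles joined by a line. All lipid-linked oligosaccharide genes except *ALG1* lie right of 0 on both arrays, while *PMT1* and *PMT2* lie on opposite sides; *MNN2* and *GPI13* have array 1 only.

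The genes that build the lipid-linked oligosaccharide leaned to positive ratios. Of the 10 tested, 9 were positive on both arrays (background 34.7%) and 1, *ALG1*, was negative on both (background 33.9%). Their median was 0.55, with 0.53 on array 1 and 0.68 on array 2. *ALG5* (dolichol phosphate glucose synthase), kept out of the test, was positive on both arrays as well, at 0.19 and 0.35. *ALG13*, the catalytic partner of Alg14, had probes and no value, and *ALG11* had no probe in the annotation used.

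On the cytosolic face the genes split. *ALG7*, which starts the pathway by placing GlcNAc phosphate on dolichol and is the target of tunicamycin, had 0.62 on array 1 and 0.68 on array 2 (mean 0.65 ± 0.04, SD, n = 2; limma adjusted p = 0.27). *ALG14*, the membrane anchor of the enzyme that adds the next GlcNAc, had 0.90 and 1.74 (mean 1.32 ± 0.59, or 2.50-fold; limma adjusted p = 0.24). These were the 2 steps before mannose is added, and both lay above 0 on each array. *ALG14* rests on 2 of its 4 probes on array 1 (0.80 and 1.01) and on 1 probe on array 2.

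*ALG1*, which adds the first mannose, had -0.48 and -0.74 (mean -0.61 ± 0.18; limma adjusted p = 0.30). All 4 of its probes were negative on both arrays, spanning -0.50 to -0.45 on array 1, and -1.16 to -0.31 on array 2. *ALG2*, which adds the following mannoses, had 0.15 and 0.46. *ALG14* exceeded *ALG1* by 1.38 on array 1 and by 2.48 on array 2, a difference for which no test was run.

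The lumenal genes were alike in sign. Among the mannosyltransferase genes, *ALG3* had 0.60 and 0.73 (mean 0.66 ± 0.10), *ALG9* 0.63 and 1.03 (mean 0.83 ± 0.29) and *ALG12* 0.55 and 0.38 (mean 0.46 ± 0.12). *ALG6*, which adds the first glucose, had 0.29 and 0.74, and *ALG8*, which adds the second, 0.04 and 0.55. The 5 lumenal genes had a median of 0.52 and the 4 measured cytosolic genes one of 0.48. *DPM1*, essential for making the mannose donor of the lumenal, O-mannose and GPI routes, had 0.51 and 0.68 (mean 0.59 ± 0.12; limma adjusted p = 0.29). Its 2 probes stood at 0.24 and 0.77 on array 1, and only the lower had a value on array 2; on that probe alone the mean was 0.46 (limma adjusted p = 0.42) and *DPM1* was not above 0.5 on both arrays. All 9 positive genes of the step stayed between 0.04 and 0.90 on array 1, so none reached 1 there. Without centring, 8 of the 10 were positive on both arrays (background 25.2%), *ALG8* turning slightly negative on array 1. That setting lowers the median of all genes to -0.17.

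Oligosaccharyltransferase genes lay nearer 0. Of the 6 tested, 3 were positive on both arrays (background 34.7%) and 0 were negative on both (background 33.9%). The median was 0.19. *WBP1*, a core subunit gene, stood highest with 0.49 and 1.03 (mean 0.76 ± 0.38; limma adjusted p = 0.29), and all 4 of its probes were positive on both arrays. *SWP1*, whose product sits beside Wbp1, had -0.36 and 0.06. *WBP1* therefore exceeded it by 0.85 and 0.97. The catalytic subunit gene *STT3* had -0.03 and 0.81, and *OST1* -0.01 and 0.10.

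*OST3* and *OST6* encode alternative thioredoxin-like subunits of which each complex carries 1. *OST3* had 0.14 and 0.05, and *OST6*, from 1 probe, 0.29 and 0.28. The pair differed by 0.15 and 0.23, with *OST6* higher on both arrays. *OST2*, *OST4* and *OST5* had probes and no value. The 3 ER trimming genes had a median of 0.20, with -0.09 on array 1 and 0.44 on array 2. They were the glucosidase genes *CWH41* (-0.13 and 0.21) and *ROT2* (0.20 and 0.44) and the mannosidase gene *MNS1* (-0.09 and 0.48). Of them, 1, *ROT2*, was positive on both arrays (background 34.7%).

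**Figure D2:**
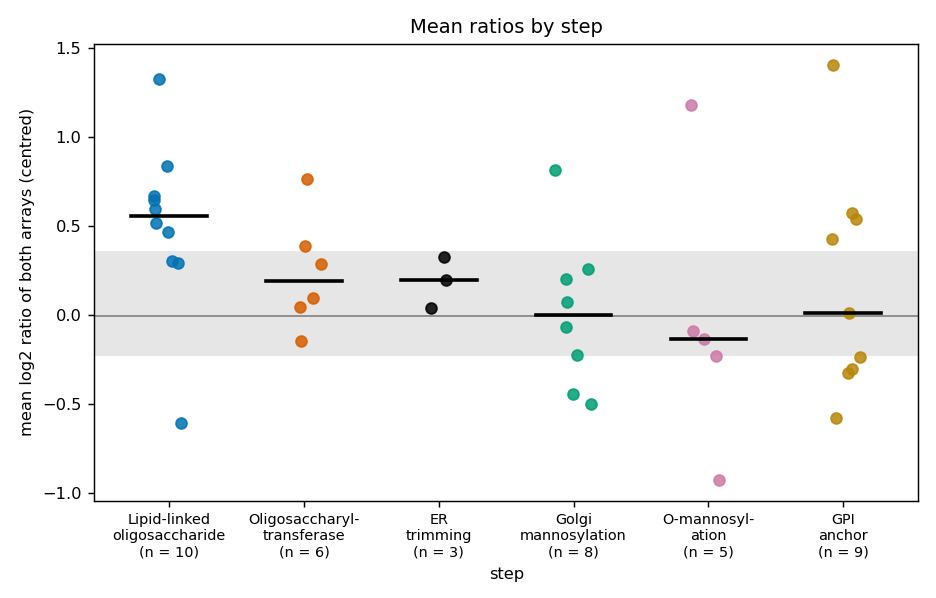
Mean log2 ratio of both arrays (y axis) for each tested gene, by step (x axis); the black bar is the step's median, the grey band spans the quartiles of all 4048 genes tested and the grey line their median. The lipid-linked oligosaccharide median, 0.55, lies above the band, and the medians of the other steps lie within it.

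In the Golgi, the genes that extend the outer chain were mostly without a value. *OCH1*, which starts the outer chain, and *MNN9*, *VAN1*, *ANP1* and *MNN10*, of the mannan polymerase complexes, had probes and no listed value on either array. Over the whole list 11 of 55 probed genes (20%) had no value, beside 696 of 5094 genes probed (13.7%). How spots were filtered was not given in the sources used here, so whether these strains were scarce in the pools was not tested. Of the same complexes, *HOC1* had 0.44 and 1.19 from 1 probe (mean 0.81 ± 0.53; limma adjusted p = 0.32). *MNN11* had 0.53 on array 1 and -0.13 on array 2, each from a different probe, so its arrays share no probe.

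The later Golgi steps gave values on either side of 0. *MNN5*, which adds branch mannoses, had -0.45 and -0.56 (mean -0.50 ± 0.08; limma adjusted p = 0.34), and -0.65 and -0.56 on the probe that both arrays share. *MNN2*, which starts the same branches, had 0.77 on array 1 from 3 probes that ranged from 0.64 to 0.85, and no value on array 2. The terminal mannosyltransferase gene *MNN1* (-0.10 and -0.03) and *MNN4*, needed for mannosylphosphate transfer (0.10 and 0.04), were the genes of this step nearest 0.

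The related mannosyltransferase genes of the Kre2 family did not share a direction. *KRE2* had 0.19 and 0.32, *KTR3* -0.55 and -0.35, and *KTR1* 0.29 and -0.75. On array 2 the 2 probes of *KTR1* stood at -0.03 and -1.46, so most of its size there came from 1 probe. The 4 probes of *KRE2* on that array ran from -0.06 to 1.01 and the 4 of *KTR3* from -0.76 to 0.12, so both genes had probes of either sign there. The 8 tested Golgi genes had a median of 0.00, 3 being positive (background 34.7%) and 3 negative (background 33.9%) on both arrays.

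O-mannosylation genes held the lowest ratio of the list beside 1 of its highest. *PMT1* had -0.65 on array 1 and -1.21 on array 2 (mean -0.93 ± 0.39, or 1.90-fold lower; limma adjusted p = 0.26). *PMT2* had 0.66 and 1.70 (mean 1.18 ± 0.73, or 2.26-fold; limma adjusted p = 0.28). Pmt1 and Pmt2 form the main O-mannosyltransferase heterodimer of the ER, and their genes lay on opposite sides of 0 on both arrays. *PMT2* exceeded *PMT1* by 1.31 and 2.90, more than the gap between arrays for either gene (no test of this difference was run).

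Their probes were close to each other. The 2 *PMT1* probes with values stood at -0.67 and -0.63 on array 1 and at -1.29 and -1.12 on array 2, while the other 2 had none. The 2 *PMT2* probes stood at 0.65 and 0.67 on array 1 and at 1.61 and 1.78 on array 2. *PMT3* (-0.29 and -0.17), *PMT5* (-0.06 and -0.21) and *PMT6* (-0.26 and 0.08), other members of the family, stayed within 0.3 of 0, and *PMT4* had no probe in the annotation used. *PMT5* adjoins *PMT1* on the chromosome and had a mean of -0.14. Of the 5 measured family members, 1 (*PMT2*) was positive on both arrays (background 34.7%) and 3 were negative on both (background 33.9%). The median of the 5 was -0.14.

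**Figure D3:**
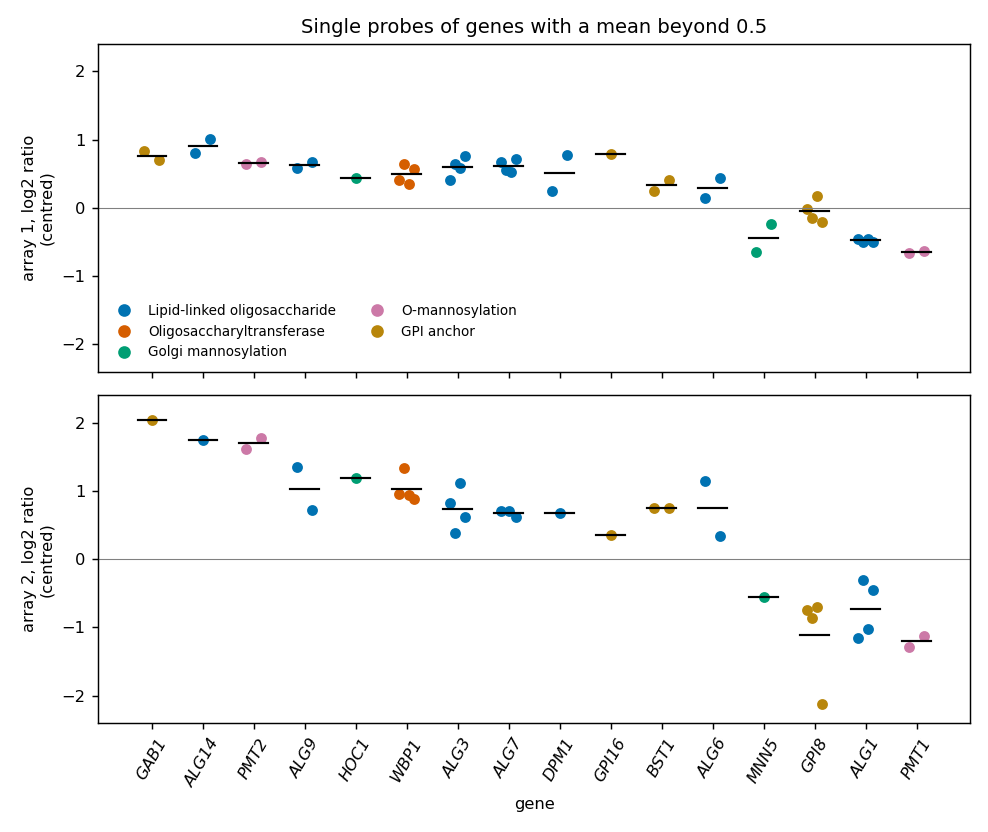
Single probes (circles) and their mean (black bar) on array 1 (upper panel) and array 2 (lower panel), as centred log2 ratios, for 16 genes whose mean reached 0.5 or -0.5, ordered by mean. The probes of *PMT1* and *PMT2* lie close together, while *GPI8* has 1 probe at -2.13 on array 2 apart from its other 3.

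GPI genes lay on both sides of 0, with a median of 0.01 (-0.05 on array 1 and 0.24 on array 2). Both arrays gave 4 of 9 as positive (background 34.7%) and 4 of 9 as negative (background 33.9%). The background was split almost evenly too, so the split does not set GPI genes apart. Genes of either sign encode the transamidase, the complex that swaps a protein's carboxyl end for the finished anchor. *GAB1*, an essential subunit gene, had the highest mean of the whole list, with 0.77 and 2.04 (mean 1.40 ± 0.90, or 2.65-fold; limma adjusted p = 0.27). It rests on 2 probes on array 1 (0.70 and 0.83) and on 1 on array 2.

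*GPI16*, which encodes another subunit, had 0.78 and 0.35 from 1 probe (mean 0.57 ± 0.31; limma adjusted p = 0.35). *GPI17* had -0.12 and -0.49. *GPI8*, which encodes the catalytic protease-like subunit, had -0.05 and -1.11 (mean -0.58 ± 0.75; limma adjusted p = 0.51). On array 2, 1 of its probes stood at -2.13 and the other 3 between -0.86 and -0.71, and with probe medians its mean was -0.44. *GAB1* exceeded *GPI8* by 0.82 on array 1 and 3.15 on array 2, and *GPI17* by 0.88 and 2.53. *GAA1* had probes and no value.

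Among the listed genes of earlier GPI steps, the means of the 4 measured on both arrays lay between -0.33 (*MCD4*) and 0.42 (*GPI10*). *GPI1* (-0.22 and 0.24) and *GPI2* (-0.29 and -0.19) belong to the enzyme that starts the anchor with GlcNAc. The mannosyltransferase gene *GPI10* had 0.30 and 0.54, *GPI14* had no value, and *MCD4*, an ethanolamine phosphate transferase gene, had -0.15 and -0.51. *GPI13*, of the same enzyme class, had 0.74 on array 1 and no value on array 2. *BST1*, which removes the inositol acyl chain after attachment, had 0.33 and 0.75 (mean 0.54 ± 0.30; limma adjusted p = 0.36).

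**Figure D4:**
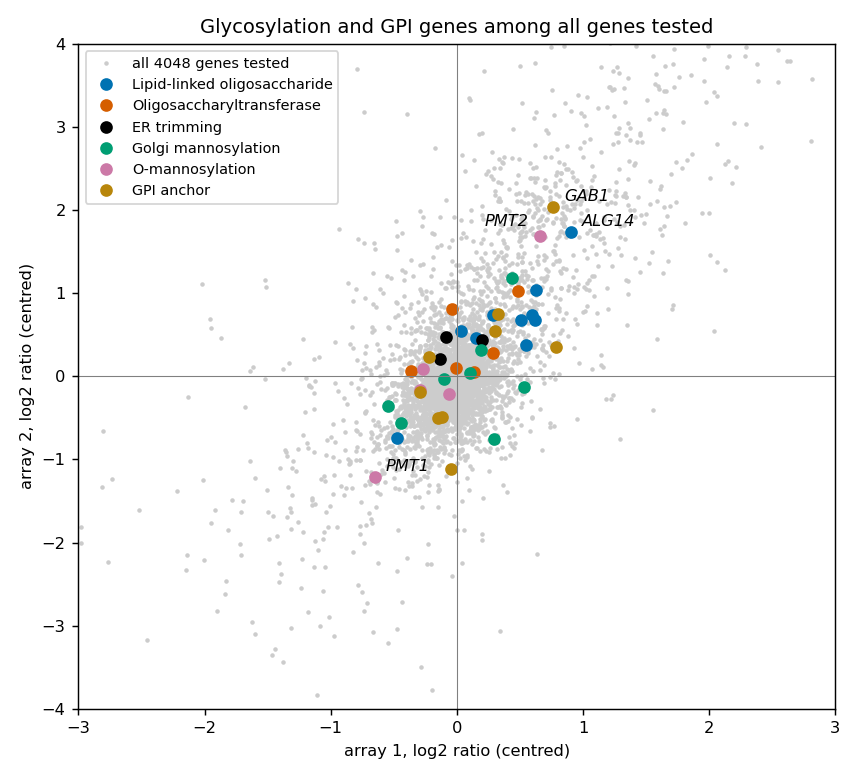
Centred log2 ratio on array 1 (x axis) against array 2 (y axis) for all 4048 genes tested (grey) and the 41 tested glycosylation and GPI genes, coloured by step; 85 genes lie outside the axes. *GAB1*, *ALG14* and *PMT2* lie upper right and *PMT1* lower left, all inside the grey cloud.

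Placed among all genes tested, the ends of the list were outside the centre without being extreme. *GAB1* lay at percentile 90.4 on array 1 and 92.1 on array 2, *ALG14* at 92.2 and 89.6, and *PMT2* at 88.5 and 89.2. *PMT1* lay at 5.46 and 3.90, and *ALG1* at 8.18 and 9.26. These percentiles do not depend on the scale of either array, and each of the 5 genes held nearly the same place on both. *GPI8* did not, with 42.5 and 4.40. The 5 genes had the highest and lowest means of the list over these same arrays, so their like places are partly fixed by that choice. Over all genes tested, Spearman's rho between arrays was 0.595.

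The scale between arrays decided which genes limma called. Array 1 had the narrower spread over probes (0.35, against 0.63 for array 2, by median absolute deviation in SD units). With the arrays brought to the same spread, limma called 3 of the 41 genes higher (background 8.97%), *ALG14* (adjusted p = 0.024), *GAB1* (0.034) and *PMT2* (0.043), and 1 lower (background 2.3%), *PMT1* (0.049). After quantile normalization the same 3 were called higher (background 8.47%), and 0 lower (background 1.58%), *PMT1* having an adjusted p = 0.061. Both shares of higher calls lay near the background.

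Essential genes of the list, which a haploid screen can hold only as partial-loss alleles, were set beside dispensable ones. The 16 tested essential genes had a median of 0.34 and the 24 tested dispensable genes one of 0.20. The order was not the same on both arrays: on array 1 the medians were 0.07 for essential and 0.17 for dispensable genes, and on array 2 they were 0.41 and 0.25. On both arrays 8 of 16 essential and 13 of 24 dispensable genes were positive (background 34.7%). *GPI1* was left unclassified. Essentiality was taken from general knowledge and not from the files.

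Because a DAmP allele alters the 3′ end of a gene, the nearest genes on each side were read as well. *GAB1* lay between *NBP1* (-0.18 and -0.53) and *YLR460C* (-0.21 and -0.02), and *PMT2* between *LTE1* (-0.74 and 1.61) and *FUN26* (-0.29 and -0.70). *ALG14* lay between *TAT1* (-0.02 and 0.84) and *YBR071W* (-0.29 and -0.40). None of these 6 neighbours was as high as its partner on both arrays, though *LTE1* was near *PMT2* (1.70) on array 2. *GIM4*, a prefoldin gene next to *WBP1*, was higher than *WBP1* itself at 1.41 and 2.54. Whether a DAmP allele acts on a neighbouring gene was not tested. *ALG6* adjoins the exosome gene *RRP6*, which had -3.08 and -3.33, while *ALG6* was positive.

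Another 64 genes of dolichol, sugar nucleotide, glycan quality control, Golgi and GPI functions gave context, and 46 of them were tested. Their median was -0.05, with 13 positive (background 34.7%) and 20 negative (background 33.9%) on both arrays. By limma 0 of 46 passed in either direction (background 0%). At an unadjusted limma p under 0.05 there was 1 higher (*GDA1*; background 11.8%) and 2 lower (*GPI15* and *PMI40*; background 4.97%). Of these 46 genes 0 were at or above 1 on both arrays (background 6.4%) and 1, *GPI15*, at or below -1 (background 2.03%), with -2.52 and -1.60 (mean -2.06 ± 0.65, or 4.17-fold lower; limma adjusted p = 0.23). The 2 *GPI15* probes stood at -2.38 and -2.66 on array 1, and only the lower had a value on array 2. Gpi15 works in the same GlcNAc transferase as Gpi1 and Gpi2, whose genes exceeded *GPI15* by 2.30 and 2.23 on array 1 and by 1.84 and 1.41 on array 2. *SPT14*, the catalytic subunit gene, lay near *RSA1* and outside the test at 0.03 and -0.24.

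Some of the other values were picked after they were seen. *DIE2*, which adds the last glucose after Alg6 and Alg8, had 0.39 and 0.96, the same sign as all 5 lumenal genes of the list. The 6 tested context genes of dolichol function, *DIE2* included, did not share that sign, and their median was 0.03. On both arrays 2 were positive (background 34.7%) and 1 (*NUS1*) negative (background 33.9%), while 3 (*SEC59*, *SRT1* and *YEA4*) were mixed. *GDA1*, a Golgi guanosine diphosphatase gene needed for import of GDP-mannose, had 0.68 and 1.83 from 4 probes that were all positive. *PMI40*, which makes mannose phosphate for the donor pathway, had -0.96 and -0.79, opposite in sign to *DPM1*. *GDA1* had the highest and *PMI40* the lowest mean of the 10 tested sugar nucleotide genes. That group did not lean one way, with a median of -0.05 and quartiles of -0.41 and 0.06.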

How the data were processed

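The authors' deposited values are log2 ratios per probe, read as log2 from their range (-6.36 to 9.40 on array 2); their base, centring and direction are not stated there. A natural log would rescale every value by 1 constant. Per the labels' protocols, barcodes were amplified with Cy3 primers (query pool) and Cy5 primers (reference pool), without a dye swap. Of 15744 probes, 13084 had 1 gene symbol, 2660 none and 0 several, and 10998 (array 1) and 10382 (array 2) had a value. Of 5100 symbols, 5098 were matched to R64 gene names. Probe values were centred per array (medians -0.06 and -0.27) and averaged per gene. The ratios were tested against 0 with limma 3.58.1 in R 4.3.3 (intercept, eBayes; Benjamini-Hochberg at 0.05 over 4048 genes); whether both arrays used 1 reference preparation is not stated. The 2 screens are called independent, but no separate cultures are named, so the p-values may measure technical spread. Having 2 arrays limits the precision. Python 3.11.15, pandas 2.3.3, numpy 2.4.6 and matplotlib 3.10.9 were used. The genes and lists were chosen with earlier results of these data known. Both array values are given for genes with a mean at or beyond 0.5 and their partners, and for most others. Alternatives were scaling, quantile normalization, no centring, other variance moderation, other probe averaging, other thresholds and other exclusions. Probe sequences and channel intensities were not used here.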

Additional observations from a re-analysis of the deposited data

How the results depend on the processing

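The number of the 41 genes called depended on the scale between arrays, and was 0 as centred (background 0%). With arrays scaled to the same median absolute deviation it was 3 higher (background 8.97%) and 1 lower (background 2.3%). After quantile normalization it was 3 higher (background 8.47%) and 0 lower (background 1.58%). The other alternatives run on both arrays left 0 calls among the list and 0 among all genes tested. Their smallest limma adjusted p among genes of the list ran from 0.11 (genes differing by over 2 left out) to 0.40 (a variance trend). Genes at or above 1 on both arrays numbered 0 as centred (background 6.4%). They numbered 2 after scaling, 3 after quantile normalization and 1 with only probes measured on both arrays. The share over all genes was not computed for those other settings, so these counts are not read as a trait of the list. At a threshold of 0.5, 7 genes of the list were above on both arrays (background 13.2%) and 1 was at or below -0.5 (background 4.99%). Of the 46 context genes, 1 was called higher after either scaling (background 8.97% with scaled arrays and 8.47% after quantile normalization). Their count at or above 1 on both arrays was 0 as centred (background 6.4%) and 1 after quantile normalization. At a threshold of 0.5 it was 1 (background 13.2%). The count at or below -1, 1 as centred, was 2 without centring and at 0.5, and 0 at 2. Without centring, the medians were 0.037 for the list, 0.39 for the lipid-linked oligosaccharide genes, 0.022 for oligosaccharyltransferase and 0.031 for ER trimming. They were -0.17 for the Golgi, -0.30 for O-mannosylation and -0.16 for GPI genes. All were lowered with the median of all genes (-0.17). In that setting 5 of 9 GPI genes were negative on both arrays, beside 1963 of 4048 genes tested. There, 5 genes near 0 (*OST1*, *OST3*, *CWH41*, *MNN4* and *GPI1*) changed sign. By single array the medians ran from 0.53 to 0.68 for the lipid-linked oligosaccharide, from 0.065 to 0.19 for oligosaccharyltransferase, from -0.26 to -0.17 for O-mannosylation and from -0.050 to 0.24 for GPI genes, and from -0.09 to 0.44 for ER trimming and from -0.08 to 0.15 for the Golgi. The GPI median, 0.01 as centred, was -0.06 after either scaling, so its sign is not settled. With only shared probes, *DPM1* was no longer above 0.5 on both arrays and *MNN11* had no value. No paired analysis was possible because the arrays form 1 group. Signal over background was not analysed here.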
